A study of Mus musculus with 6 samples.

Results

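The genes described here were raised in mouse embryonic stem cells that lack DGCR8 and stood near the wild-type level in cells with the E518K form of the protein. They were chosen from their own read counts. Counts were scaled to the library total (CPM), 0.1 was added, and an entry was kept when 3 conditions held. Its mean in KO was at least 3, both KO libraries were at least 3-fold above the highest of the E518K and wt libraries, and the E518K and wt means lay within 1.3-fold of each other. Of 21978 entries in the table, 52 met all 3 conditions. The levels of these genes in all 6 libraries are therefore a description, with no test.

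The samples were 6 poly(A)-selected libraries in 3 groups of 2, all from stem cells on gelatin, without feeders, kept in serum and LIF with a GSK3 and a MEK inhibitor. KO cells (libraries 1 and 3) had the genotype DGCR8 -/- and were not transfected. E518K cells (clones 8 and 15) had the genotype label E518K/E518K and wt cells (clones 12 and 16) the label wt/wt. Both had been transfected with a transposon vector for Flag-tagged DGCR8 of the matching form, pSB ET iE-FlagDGCR8-E518K or pSB ET iE-FlagDGCR8-wt, beside a plasmid for the transposase, pCMV(CAT)-SB100X. All cells, KO included, received 300 ng/mL doxycycline for 48 h. The labels do not say from which line the transfected cells were made. KO was untransfected and all other clones were transfected, so lack of DGCR8 cannot be told apart from clone or transfection. For genes called restored below, only an E518K mean near the wt mean is meant, not a rescue of the KO line. Both KO titles carry clone number 261, so the spread between the KO libraries can be technical, and every p value below measures only the spread between these libraries. Totals ran from 73642784 to 75121971 counts per library. Dgcr8 itself had 41.6 and 38.7 CPM in KO, against 799 and 409.8 CPM in E518K and 189 and 997 CPM in wt. KO was the lowest, and the wt clones, far apart, stood on either side of the E518K clones.

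DGCR8 binds primary miRNA transcripts and, with the nuclease Drosha, releases the hairpins that Dicer then cuts to mature miRNAs. A miRNA guides Argonaute proteins to messages whose 3′ untranslated region (3′ UTR) pairs with its seed, the bases 2 to 8 from its 5′ end, and lowers the amount of those messages. In mouse embryonic stem cells the miR-290 family is among the most abundant, and its seed overlaps that of miR-17 and miR-20a. Known targets of the family include Rbl2, one of the genes described here.

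The seeds that recur below are shown here in capitals in the mature mouse sequences, 5′ to 3′, from RefSeq on GRCm38.p6. The first 2, of the miR-290 family, share a seed. That of miR-17-5p overlaps it, with the shared letters moved by a base, and miR-34a-5p has an unrelated seed.
miR-294-3p: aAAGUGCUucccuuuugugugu
miR-295-3p: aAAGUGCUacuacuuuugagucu
miR-17-5p: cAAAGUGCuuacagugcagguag
miR-34a-5p: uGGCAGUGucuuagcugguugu
In the 3′ UTRs of the restored genes, 5 carried the full complement of the miR-290 seed followed by an A, the strongest of the common site types. These sites are shown on the message strand of GRCm38, from the GENCODE M21 transcripts, with the letters that pair with the seed in capitals.
Rbl2, chr8:91123822-91123842, plus strand: ttcaataaAGCACTTataaat
Hp1bp3, chr4:138242080-138242100, plus strand: gtttgtagAGCACTTagaggt
Lpin1, chr12:16537574-16537594, minus strand: gactcagcAGCACTTacgccc
Cd109, chr9:78716110-78716130, plus strand: tttttgtaAGCACTTaaagaa
Rpia, chr6:70765848-70765868, minus strand: agatgtgaAGCACTTactttt

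Together the 52 genes held 1364 and 1375 CPM in the KO libraries, against 350.5 and 347.7 CPM in the E518K libraries and 318.9 and 342.4 CPM in the wt libraries. Mean CPM in KO was 3.16 to 9.70 times the wt mean over the genes (median 4.56) and 3.17 to 8.105 times the E518K mean (median 4.30), with 0.1 added as in the choice of the genes. E518K over wt ran between 0.778 and 1.29 (median 1.10). Counts are not divided by gene length, so CPM values of different genes are not compared as levels. The lowest count of any of the 52 genes was 213 reads in a KO library and 18 reads in an E518K or wt library. Bulk RNA cannot tell apart fewer cells that express a gene and less RNA per cell.

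**Figure D1:**
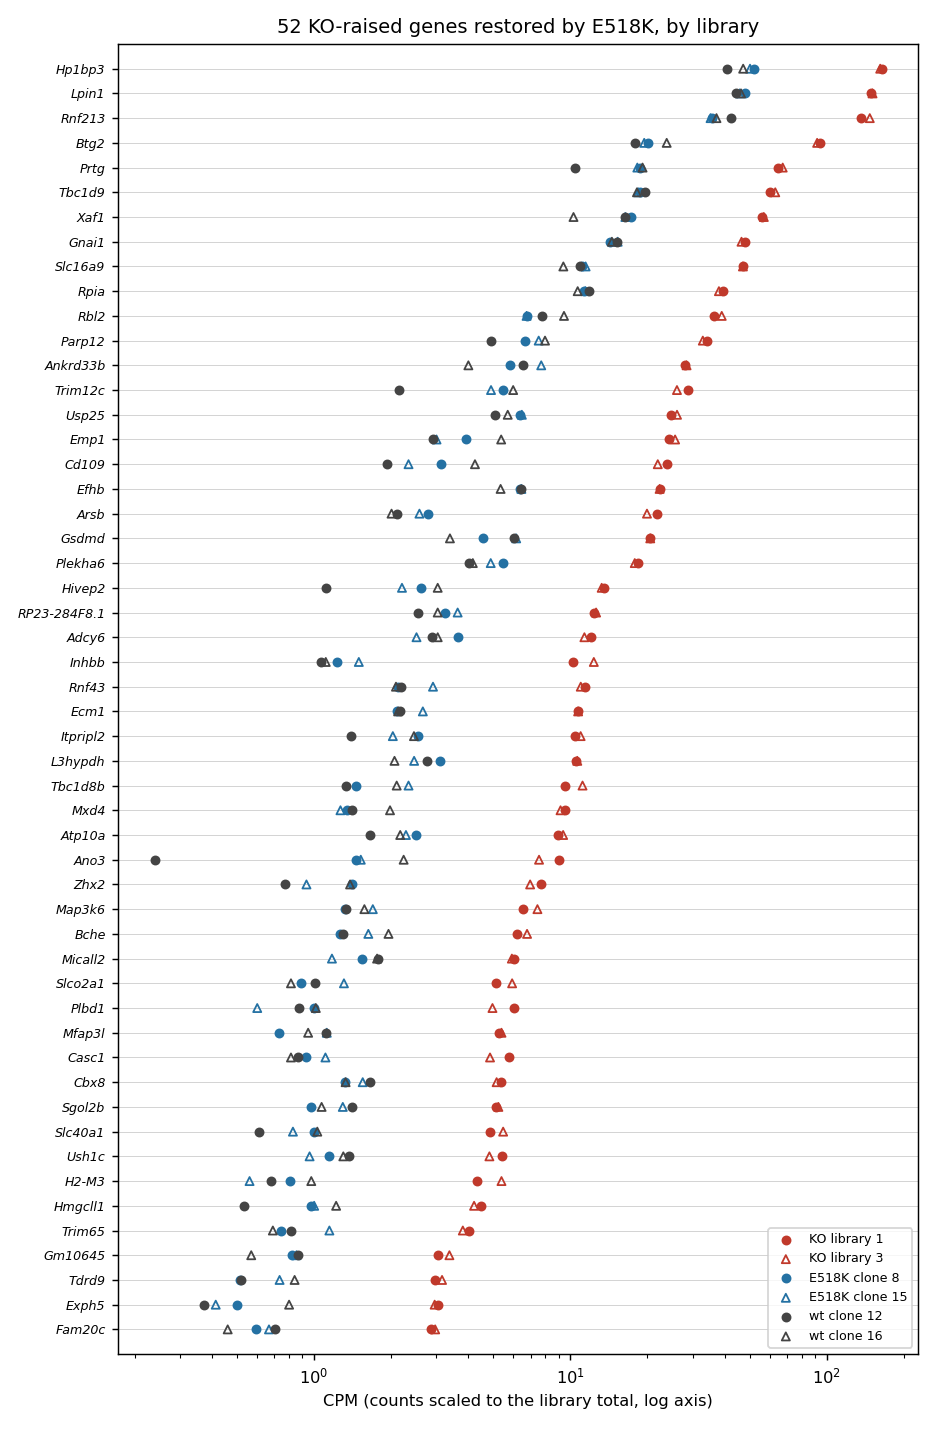
Each row is 1 of the 52 genes and each point 1 library, placed by CPM on a log axis; red is KO, blue E518K and grey wt. In every row both red points lie to the right of the other points, which the choice of genes required. Blue and grey points overlap in 37 rows, while both blue points lie right of both grey points in 10 and left in 5. The isolated grey circle at the left of Ano3 is wt clone 12.

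The genes were a small share of those raised without DGCR8. In all, 362 entries had both KO libraries at least 3-fold above both wt libraries with a KO mean of at least 3, and the 52 genes were 14.4% of them. In 138 of the 362, the KO libraries were also 3-fold above both E518K libraries. Among these 138 the E518K mean was more than 1.3-fold above wt in 74 and more than 1.3-fold below wt in 12, which left the 52. On a log2 scale from the wt mean at 0% to the KO mean at 100%, the E518K mean of the 362 entries had a median of 36.1%, a lower quartile of 18.3% and an upper quartile of 54.96%. The 52 genes ran from -21.4% to 16.2%, with a median of 5.66%, and the limits of 1.3-fold and 3-fold in their choice kept them near 0%. In 69 of the 362 entries the E518K mean lay within 1.3-fold of the wt mean. At the other end, 10 of the 362 entries had an E518K mean within 1.3-fold of KO.

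**Figure D2:**
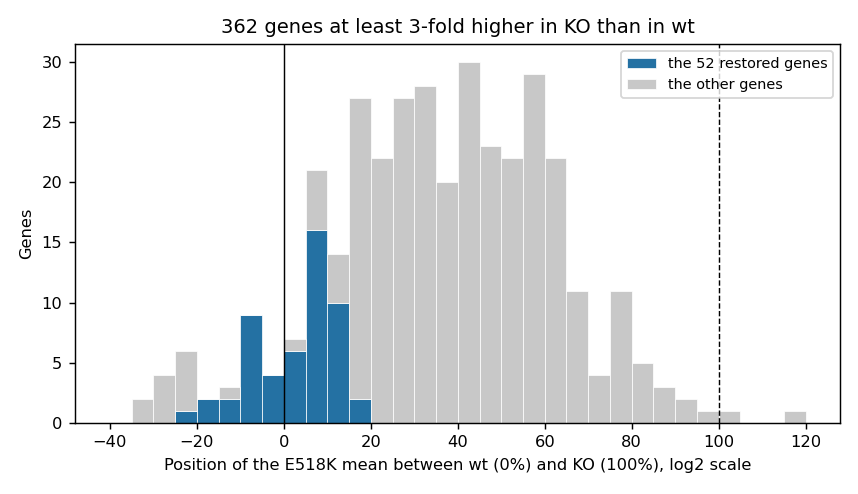
Histogram of the place of the E518K mean between the wt mean (0%) and the KO mean (100%) on the log2 scale for the 362 genes raised at least 3-fold in KO; bins are 5 percentage points wide. The 52 restored genes (blue) sit between -21.4% and 16.2%, at the low end of the 362, whose median is 36.1%. The choice of these genes required a place near 0%.

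Log2 fold changes from a fit of edgeR over all 16498 tested genes, scaled with TMM factors, had medians over the 52 genes of 2.18 in KO against wt, 2.08 in KO against E518K and 0.16 in E518K against wt. Over all tested genes the medians were -0.02, 0.02 and -0.02. All 52 genes passed an adjusted p of 0.05 as higher in KO than in wt, where 27.4% of all tested genes were called higher and 29.7% lower, and all 52 as higher in KO than in E518K, where 19.8% were called higher and 22% lower; the choice of genes used both contrasts, so nothing is read from these counts. Between E518K and wt none of the 52 passed, whereas 23.7% of all tested genes did, 11.3% as higher and 12.5% as lower in E518K. At an unadjusted p under 0.05 edgeR had 5 of the 52 in that contrast. The share of all genes at that threshold is not given, so nothing is read from this count. DESeq2 called 4707 genes in that contrast, with 1 of the 52 among them, Hp1bp3, as higher in E518K. That contrast, too, was limited by the choice of genes. Ano3 was the exception among the calls in KO. It lost its call in both contrasts with no low-count filter, when KO library 1 was left out, and when E518K clone 15 was left out. In KO against E518K the call was also lost with DESeq2 and when KO library 3 or E518K clone 8 was left out.

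Genes that restrain growth or shape transcription and chromatin made up 8 of the 52. Their KO over wt ratio had a median of 4.38, and E518K over wt had a median of 0.958. Rbl2 (chr8:91070057-91123844, plus strand, GRCm38), a pocket protein that holds E2F target genes silent in resting cells, had 36.3 and 38.95 CPM in KO, against 6.78 and 6.75 CPM in E518K and 7.76 and 9.45 CPM in wt. The KO libraries lay far above the rest, and both E518K clones lay below both wt clones. The log2 fold change was 2.05 ± 0.11 (SE, n = 2 libraries a group, as for all fold changes here) in KO against wt and -0.33 ± 0.12 in E518K against wt. The span of Rbl2 shares 12061 bases with Aktip on the other strand, and no source used here says whether counting separated strands, so the 2 genes may share reads. Aktip had 39.3 and 41.8 CPM in KO, against 23.7 and 24.2 CPM in E518K and 26.4 and 27.96 CPM in wt, a smaller difference than that of Rbl2.

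Btg2, an antiproliferative gene induced by p53, had 93.8 and 91.7 CPM in KO, against 20.1 and 19.4 CPM in E518K and 17.9 and 23.8 CPM in wt. Its wt clones enclosed both E518K clones. Mxd4, which competes with Myc for their shared partner Max, had 9.56 and 9.16 CPM in KO, against 1.35 and 1.27 CPM in E518K and 1.41 and 1.98 CPM in wt. As in Rbl2, both E518K clones were lower than both wt clones, and the 2 genes had the lowest places on the wt to KO scale among the 8, at -16.2% and -14.5%. Hp1bp3, a nuclear protein related to linker histones, had 164 and 162 CPM in KO, against 51.9 and 50.2 CPM in E518K and 40.8 and 47.2 CPM in wt. Here the order was the reverse, and both E518K clones were higher than both wt clones.

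Zhx2, a zinc-finger and homeobox repressor, had 7.68 and 6.97 CPM in KO, against 1.41 and 0.936 CPM in E518K and 0.772 and 1.39 CPM in wt. Hivep2, a zinc-finger protein of the kappa B enhancer-binding family, had 13.5 and 13.3 CPM in KO, against 2.61 and 2.21 CPM in E518K and 1.12 and 3.04 CPM in wt. Both had KO over wt ratios above 6, at 6.301 and 6.18, and both had a wide gap between the wt clones. Cbx8, a chromodomain subunit of Polycomb repressive complex 1, had 5.35 and 5.16 CPM in KO, against 1.32 and 1.55 CPM in E518K and 1.65 and 1.33 CPM in wt and lay nearest to the 3-fold limit. Sgol2b, a relative of the centromere protein shugoshin, had 5.15 and 5.24 CPM in KO, against 0.973 and 1.298 CPM in E518K and 1.41 and 1.07 CPM in wt. Its near copy Sgol2a had 101 and 105 CPM in KO, against 61.6 and 78.3 CPM in E518K and 66.6 and 80.5 CPM in wt, so reads shared between the copies could be a large part of the Sgol2b values, and Sgol2b is uncertain.

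Genes of innate defence and ubiquitin signalling were another 8, with a median KO over wt ratio of 4.68. Parp12, an interferon-stimulated ADP-ribosyltransferase, had 34.1 and 32.9 CPM in KO, against 6.68 and 7.53 CPM in E518K and 4.93 and 7.97 CPM in wt. Xaf1, an interferon-inducible gene that opposes inhibitors of apoptosis, had 55.8 and 56.8 CPM in KO, against 17.3 and 16.4 CPM in E518K and 16.3 and 10.3 CPM in wt. For Parp12 the E518K clones lay between the wt clones, whereas for Xaf1 both E518K clones were above both wt clones, by a small margin over clone 12. Rnf213, a very large ubiquitin ligase with an ATPase core that interferon also induces, had 136 and 147 CPM in KO, against 35.8 and 35.2 CPM in E518K and 42.4 and 37.2 CPM in wt, and both its E518K clones were below both wt clones.

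Gsdmd encodes gasdermin D, which forms the pore of pyroptosis once caspases cut it. It had 20.5 and 20.5 CPM in KO, against 4.55 and 6.15 CPM in E518K and 6.06 and 3.39 CPM in wt, and its E518K and wt clones overlapped. H2-M3, a class Ib histocompatibility protein that presents formylated peptides, had 4.34 and 5.39 CPM in KO, against 0.811 and 0.562 CPM in E518K and 0.679 and 0.978 CPM in wt. Its E518K and wt clones overlapped too. Usp25, a deubiquitinating enzyme, had 24.7 and 26.1 CPM in KO, against 6.38 and 6.47 CPM in E518K and 5.09 and 5.703 CPM in wt, with the E518K clones slightly above the wt clones.

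Trim12c belongs to a cluster of genes related to the retroviral restriction factor Trim5. It had 28.6 and 26.1 CPM in KO, against 5.47 and 4.91 CPM in E518K and 2.16 and 5.99 CPM in wt. The wt clones differed 2.70-fold, and both E518K clones lay between them. Its neighbours in the family differed in the same direction, Trim12a with 11.2 and 10.3 CPM in KO, against 3.39 and 2.702 CPM in E518K and 0.892 and 2.58 CPM in wt and Trim5 with 3.76 and 3.16 CPM in KO, against 0.919 and 0.722 CPM in E518K and 0.546 and 0.991 CPM in wt, and reads from these similar copies cannot be assigned with certainty. Trim65, a ubiquitin ligase that acts on RNA sensors, had 4.04 and 3.81 CPM in KO, against 0.743 and 1.15 CPM in E518K and 0.812 and 0.693 CPM in wt. It shares 5365 bases with Trim47 on the same strand, which had 24.04 and 25.2 CPM in KO, against 2.88 and 2.98 CPM in E518K and 5.02 and 4.41 CPM in wt, so the Trim65 values are uncertain as well.

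Signalling genes were 8 of the 52 and included 2 of the largest differences. Inhbb (chr1:119415465-119422248, minus strand) encodes the beta B subunit of activins, ligands of the TGF-beta family. It had 10.3 and 12.4 CPM in KO, against 1.23 and 1.498 CPM in E518K and 1.06 and 1.11 CPM in wt. The KO over wt ratio was 9.604, the log2 fold change 3.29 ± 0.20 in KO against wt and 2.95 ± 0.20 in KO against E518K, and both E518K clones were slightly above both wt clones. Cd109 (chr9:78615546-78716253, plus strand), a co-receptor that dampens TGF-beta signalling, had 23.9 and 21.9 CPM in KO, against 3.14 and 2.34 CPM in E518K and 1.93 and 4.25 CPM in wt. Its log2 fold change in KO against E518K was 2.97 ± 0.33, the highest of the 52 genes, and the wt clones, 2.14-fold apart, enclosed both E518K clones.

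Prtg encodes protogenin, an immunoglobulin-type receptor of early embryos, and had 64.8 and 67.3 CPM in KO, against 18.7 and 18.3 CPM in E518K and 10.4 and 19.1 CPM in wt. In this gene 3 of the E518K and wt libraries were nearly level, and wt clone 12 stood alone below them. Emp1, a small membrane protein of the PMP22 family, had 24.3 and 25.6 CPM in KO, against 3.93 and 3.01 CPM in E518K and 2.93 and 5.38 CPM in wt, and its wt clones enclosed the E518K clones. Rnf43, a ubiquitin ligase that removes Wnt receptors from the cell surface, had 11.4 and 10.99 CPM in KO, against 2.14 and 2.92 CPM in E518K and 2.18 and 2.09 CPM in wt, with overlapping clones.

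The G protein subunit gene Gnai1, which inhibits adenylyl cyclase, had 47.8 and 46.5 CPM in KO, against 14.3 and 15.3 CPM in E518K and 15.2 and 14.5 CPM in wt. Its E518K and wt libraries were the closest of all 52 genes, with 1.07-fold between the highest and the lowest of the 4. Adcy6, an adenylyl cyclase, had 12.0 and 11.4 CPM in KO, against 3.65 and 2.51 CPM in E518K and 2.902 and 3.04 CPM in wt, and the stress kinase gene Map3k6 had 6.56 and 7.45 CPM in KO, against 1.32 and 1.699 CPM in E518K and 1.33 and 1.58 CPM in wt. Gnai1 and Adcy6 were both among the 3 genes nearest to the 3-fold limit.

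Transport genes were 5, all with an E518K mean above wt, by 1.10 to 1.24 times. Of all 52 genes, 35 had a log2 fold change above 0 in E518K against wt, and the median ratio was 1.10. Slc40a1, which encodes the iron exporter ferroportin, had 4.86 and 5.47 CPM in KO, against 1.00 and 0.829 CPM in E518K and 0.612 and 1.03 CPM in wt. Slc16a9, a monocarboxylate transporter, had 47.1 and 47.1 CPM in KO, against 11.1 and 11.5 CPM in E518K and 10.9 and 9.397 CPM in wt. In Slc40a1 the clones overlapped, and in Slc16a9 both E518K clones were above both wt clones. Slco2a1, the prostaglandin transporter, had 5.13 and 5.93 CPM in KO, against 0.892 and 1.31 CPM in E518K and 1.01 and 0.815 CPM in wt, and the phospholipid flippase gene Atp10a had 8.92 and 9.38 CPM in KO, against 2.50 and 2.29 CPM in E518K and 1.65 and 2.17 CPM in wt. Ano3, of the anoctamin family of calcium-activated channels and scramblases, had 9.01 and 7.55 CPM in KO, against 1.46 and 1.52 CPM in E518K and 0.2396 and 2.24 CPM in wt. In wt clone 12 this is 18 reads, the lowest count of any of the 52 genes, and the E518K clones lay between the wt clones. Ano3 contains Muc15 on the other strand within its span, which had only 1 to 20 reads a library.

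Metabolic and lysosomal enzymes were 7. Arsb (chr13:93771630-93943016, plus strand), the lysosomal enzyme that removes sulphate from dermatan and chondroitin chains, had 21.8 and 19.9 CPM in KO, against 2.797 and 2.58 CPM in E518K and 2.12 and 2.01 CPM in wt. The KO over wt ratio of 9.698 was the highest of the 52 genes, and the lower KO library was 6.91 times the highest other library. Arsb was also the gene nearest to the 1.3-fold limit, with both E518K clones above both wt clones and an E518K over wt ratio of 1.29. Lpin1, a phosphatidate phosphatase of lipid synthesis that also acts in the nucleus, had 149 and 151 CPM in KO, against 47.97 and 45.8 CPM in E518K and 44.1 and 46.3 CPM in wt. Rpia, the ribose 5-phosphate isomerase of the pentose phosphate pathway, had 39.4 and 37.98 CPM in KO, against 11.3 and 11.4 CPM in E518K and 11.9 and 10.7 CPM in wt. In both, the E518K and wt libraries overlapped within a narrow band. Bche, butyrylcholinesterase, had 6.196 and 6.78 CPM in KO, against 1.27 and 1.63 CPM in E518K and 1.304 and 1.96 CPM in wt, and Plbd1, a phospholipase B-like protein of lysosomes, had 6.02 and 4.97 CPM in KO, against 1.00 and 0.602 CPM in E518K and 0.879 and 1.02 CPM in wt. The remaining enzymes of this group, Hmgcll1 and L3hypdh, had KO over wt ratios of 4.55 and 4.25.

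Genes of the secretory pathway, membrane trafficking and cytoskeleton were 8, with KO over wt ratios of 3.24 to 5.76. Tbc1d9, of a family of Rab GTPase regulators, had 60.2 and 62.98 CPM in KO, against 18.7 and 18.4 CPM in E518K and 19.6 and 18.2 CPM in wt, and its relative Tbc1d8b had 9.56 and 11.2 CPM in KO, against 1.46 and 2.34 CPM in E518K and 1.33 and 2.105 CPM in wt. The E518K and wt clones of Tbc1d9 were nearly level, whereas those of Tbc1d8b spread more widely and overlapped. The predicted gene Gm10645, also among the 52, lies on the other strand and shares 819 of its 1090 bases with Tbc1d9, so its 3.06 and 3.38 CPM in KO can be reads of Tbc1d9. Micall2, an adaptor of Rab13 at cell junctions, had 6.01 and 5.92 CPM in KO, against 1.54 and 1.18 CPM in E518K and 1.78 and 1.77 CPM in wt, with both E518K clones below both wt clones. Ecm1, a secreted matrix glycoprotein, had 10.7 and 10.7 CPM in KO, against 2.11 and 2.66 CPM in E518K and 2.17 and 2.13 CPM in wt. Ush1c, Exph5, Plekha6 and the secretory-pathway kinase gene Fam20c completed the group. Their KO over wt ratios were 3.64, 4.52, 4.34 and 4.42.

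Of the 8 genes left in no group, Tdrd9, a helicase of the piRNA pathway in germ cells, had 2.98 and 3.16 CPM in KO, against 0.514 and 0.736 CPM in E518K and 0.519 and 0.842 CPM in wt. Casc1, a component of motile cilia, had 5.78 and 4.87 CPM in KO, against 0.932 and 1.11 CPM in E518K and 0.865 and 0.815 CPM in wt and shares 101 bases with Lrmp. Efhb, an EF-hand protein of ciliary microtubules, had 22.4 and 22.3 CPM in KO, against 6.39 and 6.45 CPM in E518K and 6.43 and 5.35 CPM in wt. Ankrd33b, Itpripl2, Mfap3l, Gm10645 and RP23-284F8.1 are less well known, and their KO over wt ratios ran from 4.06 to 5.33. No coordinates were matched to RP23-284F8.1.

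**Figure D3:**
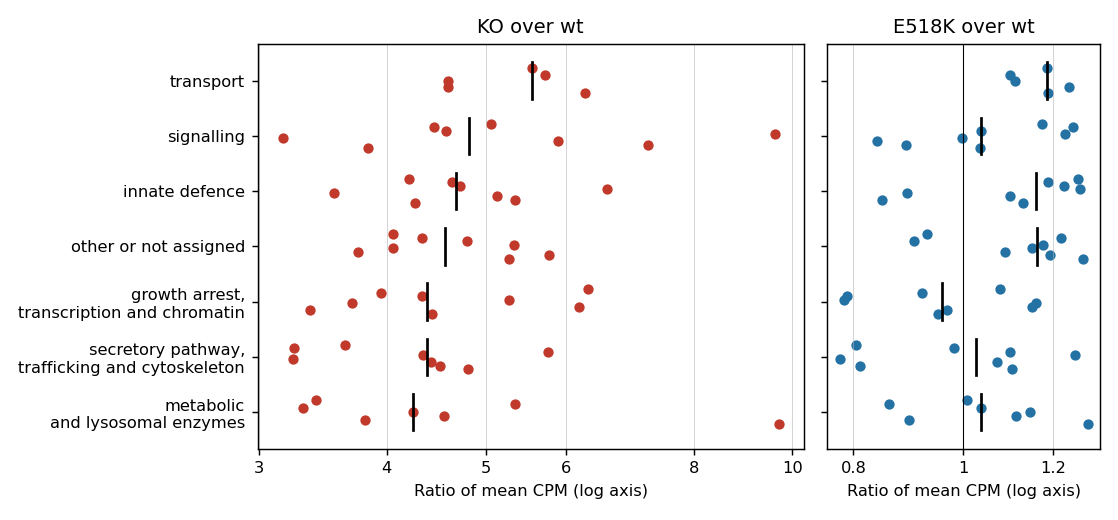
Ratio of mean CPM (0.1 added) in KO over wt (left panel) and in E518K over wt (right panel) for the 52 genes by role, on log axes; each point is 1 gene and each vertical bar a group median. Group medians of KO over wt lie between 4.25 for metabolic and lysosomal enzymes and 5.56 for transport, with overlapping spreads. In the right panel all 5 transport genes lie to the right of 1, where the median of all 52 genes, 1.10, also lies.

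Closeness of the group means did not always mean close libraries. In 12 of the 52 genes all E518K and wt libraries lay within 1.3-fold of each other. These were Gnai1, Tbc1d9, Lpin1, Rpia, Efhb, Rnf213, Slc16a9, Cbx8, Ecm1, Map3k6, Usp25 and Hp1bp3. Over the 52 genes the highest of the 4 libraries was between 1.07 and 6.89 times the lowest, with a median of 1.48. Both E518K clones were above both wt clones in 10 genes (Hp1bp3, Xaf1, Slc16a9, Usp25, Arsb, Plekha6, RP23-284F8.1, Inhbb, Atp10a and Casc1), and both were below in 5 (Rnf213, Rbl2, Mxd4, Micall2 and Ush1c). In the other 37 the clones overlapped. Among the 11574 entries with a KO mean of at least 3, both E518K clones were above in 32.2% and below in 32.8%, and the limit of 1.3-fold on the means bears on this comparison.

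The spread within groups was widest in wt. Over the 52 genes the median fold was 1.05 between the KO libraries, 1.17 between the E518K clones and 1.26 between the wt clones. Over all entries with a KO mean of at least 3, these medians were 1.03, 1.07 and 1.12 in KO, E518K and wt. The pair lay within 1.3-fold for all 52 genes in KO, for 38 in E518K and for 28 in wt. wt clone 16 was the higher in 29 of the 52 genes (55.8%), as it was in 55.6% of all those entries, so the clones did not differ in one direction. More than 2-fold higher in clone 16 were Ano3 (6.89), Trim12c (2.70), Hivep2 (2.58), Cd109 (2.14) and Hmgcll1 (2.09).

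**Figure D4:**
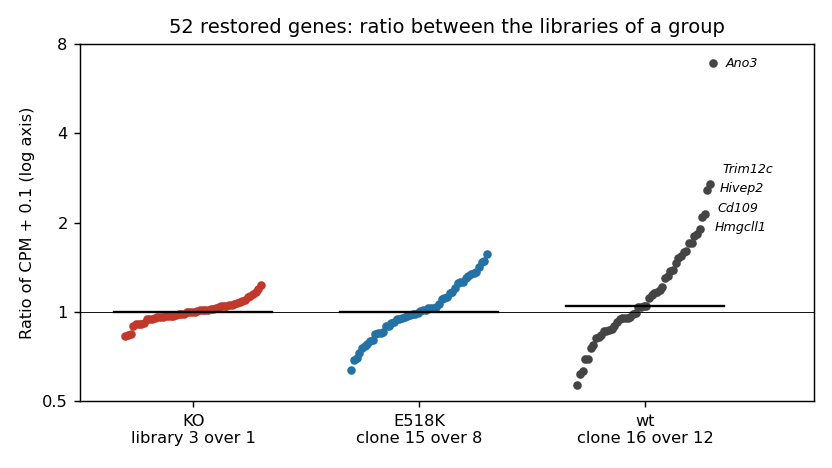
Ratio of CPM (0.1 added) between the libraries of each group for the 52 genes, on a log axis; points are genes in rising order within a group and bars are medians. KO points keep between 0.829 and 1.24 and E518K points between 0.638 and 1.57, while wt points reach 6.89 for Ano3.

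For several of the 52 genes the size or direction of the difference between E518K and wt depended on the wt clone used. With a single wt library, log2 fold changes of E518K against wt in edgeR gave the following examples, picked by adjusted p within those fits. Xaf1, Slc16a9, Hp1bp3 and Atp10a were above both wt clones in CPM, and Rbl2, Mxd4 and Rnf213 below both. For these only the size of the difference changed. The first examples had clone 16 as the only wt library. Xaf1, Ankrd33b, Gsdmd and Slc16a9 were then higher in E518K (log2 fold changes of 0.76, 0.80, 0.70 and 0.31). Rbl2, Mxd4, Emp1, Cd109 and Btg2 were then lower (-0.43, -0.55, -0.59, -0.59 and -0.22). With clone 12 alone for wt, Hivep2, Ano3, Hp1bp3, Parp12, Atp10a, Itpripl2, Trim12c, Prtg and Hmgcll1 were higher in E518K, by 0.31 to 2.62. Rnf213 was lower at -0.27. The single wt library is assumed in such a fit to vary like the other groups, so no calls are counted. With the rule itself applied without 1 library at a time, 38 of the 52 genes stayed when E518K clone 8 was left out and 47 when E518K clone 15 was. For the wt clones 35 stayed in the absence of clone 12 and 39 in that of clone 16, and for the KO libraries 52 in the absence of library 1 and 51 in that of library 3. Kept in every case were 17, the 12 named above with Casc1, Btg2, Sgol2b, Adcy6 and Tdrd9.

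Scaling mattered for genes near the 3-fold limit. With TMM factors, which are 1.04 in both KO libraries and 0.965 to 1.00 in the others, 38 of the 52 genes met the rule, and with DESeq2 size factors 36 did. Of the 12 genes with level E518K and wt libraries, 7 were lost with both (Gnai1, Tbc1d9, Lpin1, Rpia, Rnf213, Cbx8 and Hp1bp3). Just inside the 3-fold limit were Cbx8 (3.01), Gnai1 (3.03) and Adcy6 (3.06), as the lower KO library over the highest other one, and just outside were Trim5 (2.99), Galnt7 (2.93) and Slc24a2 (2.93). Just inside the 1.3-fold limit were Arsb (1.29), Micall2 (1.29) and Ankrd33b (1.28), as the larger over the smaller mean, and just outside were Nfia (1.31), RP23-172B16.4 (1.32) and Vill (1.33). Just inside the KO minimum of 3 were Fam20c (3.02), Exph5 (3.10) and Tdrd9 (3.17), and just outside were Gnat3 (2.995), Il7 (2.85) and Klk11 (2.83).

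The 5 other genes most like the mean profile of the 52, by Pearson correlation of log2 CPM over the 6 libraries among 11522 candidates, were Dync1li2, Tnfaip1, Tmem184b, Sema4b and D930015E06Rik, all with a correlation above 0.998. All 5 missed the 3-fold condition. Dync1li2, a light intermediate chain of cytoplasmic dynein, had 96.4 and 98.1 CPM in KO, against 38.1 and 38.3 CPM in E518K and 35.2 and 40.1 CPM in wt. Sema4b, a semaphorin, had 253 and 242 CPM in KO, against 108 and 105 CPM in E518K and 93.3 and 105 CPM in wt. Correlation with such a mean over 3 groups of 2 is set mostly by the KO libraries. Smaller rises in KO with E518K near the wt level were thus found outside the 52.

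Other genes of the pathways touched by the 52 were taken from lists that leave the 52 out. Some genes stand in more than 1 list, so the counts of different lists are not separate observations. Cdkn1a is in the miR-290, p53 and G1/S lists, Tgfbr2 in the miR-290 and TGF-beta lists, and Irf2 in the miR-290 and interferon lists. The counts below stand beside those for all tested genes, of which 27.4% were higher and 29.7% lower in KO than in wt, 19.8% higher and 22% lower in KO than in E518K, and 11.3% higher and 12.5% lower in E518K than in wt. Of 19 tested genes published as miR-290 targets, 15 were higher and 1 lower in KO than in wt, and 15 were higher and 1 lower in KO than in E518K (edgeR, adjusted p of 0.05 over all genes). Between E518K and wt 3 were higher and 1 lower. The list medians were 1.05, 0.80 and 0.01 on the log2 scale, beside -0.02, 0.02 and -0.02 for all tested genes. The Hippo kinase gene Lats2 had 56.8 and 57.2 CPM in KO, against 11.6 and 13.2 CPM in E518K and 7.19 and 7.77 CPM in wt, with a log2 fold change of 2.85 ± 0.10 in KO over wt (edgeR adjusted p = 1.01e-05). E518K over wt was 0.74 ± 0.10 (edgeR adjusted p = 0.00385). It thus rose in E518K as well, with both E518K clones above both wt clones. Casp2, a caspase of genotoxic stress, had 58.2 and 60.4 CPM in KO, against 18.3 and 17.7 CPM in E518K and 19.8 and 23.7 CPM in wt, and its log2 fold change was 1.37 ± 0.09 in KO against wt (edgeR adjusted p = 6.26e-05), with both KO libraries above all others.

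Among 21 p53 targets other than Btg2, 12 were higher and 2 lower in KO than in wt, 12 were higher and 4 lower in KO than in E518K, and 2 were higher and 1 lower in E518K than in wt. Cdkn1a, the cyclin-dependent kinase inhibitor p21, had 540.3 and 512 CPM in KO, against 121 and 109.8 CPM in E518K and 128 and 174 CPM in wt and a log2 fold change of 1.72 ± 0.13 in KO against wt (edgeR adjusted p = 7.97e-05), with all KO values above all others. The list of interferon and RNA sensing genes held none of the 52. Parp12, Xaf1, Rnf213 and Trim65, described above with such roles, are not on that list. Of 22 tested, 13 were higher and 3 lower in KO than in wt, 11 higher and 2 lower in KO than in E518K, and 8 higher and 1 lower in E518K than in wt. Irf9, a transcription factor of the interferon response, had 54.7 and 50.9 CPM in KO, against 17.1 and 17.7 CPM in E518K and 13.3 and 14.3 CPM in wt. In that list the median was 1.04 in KO against wt, 0.55 in KO against E518K and 0.61 in E518K against wt (log2 fold changes), beside -0.02, 0.02 and -0.02 for all tested genes.

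TGF-beta receptors and signal carriers (22 tested) had 11 higher and 4 lower in KO than in wt, 12 higher and 1 lower in KO than in E518K, and 1 higher and 5 lower in E518K than in wt. Tgfbr2, a TGF-beta receptor, had 6.37 and 6.298 CPM in KO, against 0.351 and 0.348 CPM in E518K and 0.519 and 0.706 CPM in wt, and Smad3, a signal carrier, had 48.8 and 48.1 CPM in KO, against 20.7 and 21.2 CPM in E518K and 19.7 and 23.8 CPM in wt. Both rose in KO against wt, by 3.29 ± 0.23 and 1.08 ± 0.10 on the log2 scale (edgeR adjusted p = 6.91e-05 and 0.000148). Inhibitors and cyclins of the G1/S step, Rbl2 left out, moved both ways among 22 tested, with 8 higher and 9 lower in KO than in wt, 6 and 6 in KO against E518K, and 4 and 3 in E518K against wt. Rbl1, the pocket protein closest to Rbl2, had 64.2 and 66.9 CPM in KO, against 29.6 and 31.3 CPM in E518K and 34.4 and 34.8 CPM in wt.

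These counts depended on single libraries, and so did the calls over all tested genes, given under processing below. A change here is therefore not read as particular to a list. Without 1 library at a time, the miR-290 target count in KO against wt ran from 11 to 16 and the p53 count from 9 to 14, and the lower end of both came without KO library 1 or 3. Without either KO library the TGF-beta count in KO against wt was 7. In KO against E518K the interferon count was 5 or 6 and the TGF-beta count 5 or 6 without any 1 of the KO or E518K libraries, and the lower count of the G1/S list was 3 without either KO library. Its lower count in KO against wt was 5 without KO library 1 and 3 without KO library 3. Other lists varied as much, and lysosomal genes higher in KO than in wt numbered 3 to 11. In E518K against wt, leaving out 1 library moved the interferon count between 3 and 11.

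The remaining pathway lists held none of the 52. Their counts read against the same shares of all tested genes, 27.4% and 29.7%, 19.8% and 22%, and 11.3% and 12.5% as higher and lower. In KO against wt they were, as higher and lower, 8 and 8 of 18 let-7 targets, 9 and 7 of 22 BCL2 family and caspase genes, 7 and 9 of 25 lysosome and autophagy genes, 11 and 8 of 25 actin and adhesion genes, 7 and 4 of 18 germline genes under DNA methylation and 5 and 3 of 16 neural genes. In KO against E518K they were 6 and 7, 9 and 5, 10 and 8, 9 and 6, 4 and 1, and 1 and 4 in the same order. In E518K against wt they were 2 and 3, 1 and 6, 3 and 11, 5 and 3, 0 and 3, and 5 and 1.

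Cell type markers were measured beside these genes, and their counts in KO against wt stand beside 27.4% higher and 29.7% lower among all tested genes. Of the stem cell markers, Pou5f1 had 1160.4 and 1122 CPM in KO, against 1325 and 1311 CPM in E518K and 1310.4 and 1201 CPM in wt, and Sox2 and Nanog were likewise abundant in all libraries. The summed level of the 20 stem cell markers was 7551 and 7457 CPM in KO, 8376 and 8350 CPM in E518K and 9176 and 8308 CPM in wt, with 14 lower and 4 higher in KO than in wt among 20 tested. Summed markers of primitive streak and mesoderm were 385 to 396 CPM in KO, 639.9 to 706 CPM in E518K and 567 to 769 CPM in wt (14 genes, 4 higher and 3 lower of 11 tested in KO against wt, with a median log2 fold change of 0.54). Most of that sum was Lefty2, a Nodal antagonist, with 349 and 356 CPM in KO, against 667 and 602 CPM in E518K and 737 and 532 CPM in wt. Others of the list went the other way, and Evx1, Kdr and Wnt3 were higher in KO than in wt by 5.20 ± 0.33, 4.56 ± 0.36 and 1.98 ± 0.40 on the log2 scale (edgeR adjusted p = 4.84e-05, 0.000101 and 0.00461). Fibroblast and feeder markers summed to 2644 to 2679 CPM in KO, 2092 to 2137 CPM in E518K and 2229.8 to 2627 CPM in wt (14 genes, 2 higher and 3 lower of 12 tested), and of its defining genes Col1a1 had 1.28 and 2.38 CPM in KO, against 1.05 and 0.963 CPM in E518K and 1.28 and 1.82 CPM in wt, while Dcn was at most 0.216 CPM. Most of the fibroblast sum was Fn1, with 1917 and 1920 CPM in KO, against 1630 and 1690 CPM in E518K and 1907 and 2338 CPM in wt. Vim had 567 and 603 CPM in KO, against 324 and 331 CPM in E518K and 188 and 164 CPM in wt. Trophectoderm markers (13 genes, 1 higher and 6 lower of 10 tested) summed to 91.1 to 97.0 CPM in KO, 67.6 to 76.2 CPM in E518K and 87.7 to 112 CPM in wt, and of their defining genes Elf5 was at most 0.0272 CPM. The other, Cdx2, had 1.97 and 2.16 CPM in KO, against 3.62 and 3.41 CPM in E518K and 1.57 and 0.516 CPM in wt and was higher in E518K than in wt, by 1.75 ± 0.46 on the log2 scale (edgeR adjusted p = 0.0333). Cdx2 went against its list there. In E518K against wt 1 of the 10 tested was higher and 7 were lower, beside 11.3% and 12.5% of all tested genes. The list median in that contrast was -1.05 on the log2 scale. Primitive endoderm markers (14 genes, 1 higher and 4 lower of 14 tested in KO against wt) summed to 421 to 424 CPM in KO, 272 to 288 CPM in E518K and 378 to 430.3 CPM in wt. Most of that sum was Sparc, with 383 and 379 CPM in KO, against 252 and 236 CPM in E518K and 346 and 311 CPM in wt. Gata4 and Sox17, which define the list, were at most 1.76 and 0.346 CPM. Blood and immune markers (16 genes, 6 higher and 3 lower of 13 tested) summed to 329 to 335 CPM in KO, 303 to 322 CPM in E518K and 310.1 to 324 CPM in wt, and Ptprc, which defines that list, was at most 0.135 CPM. Fcgr2b, Cd3d, Cd3g and Cd3e were higher in KO than in wt, by 4.10 ± 0.27, 3.67 ± 0.42, 2.72 ± 0.31 and 1.92 ± 0.18 (log2). Cd79b, among the 3 lower, changed by -3.52 ± 0.46. Fcgr2b and the Cd3 genes were also higher in E518K than in wt, where 5 of the 13 were higher and 2 lower. No marker gene is among the 52. The part of the lower stem cell markers in the levels of the 52 genes was not tested.

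Seed matches were read from the longest annotated 3′ UTR and did not enter the choice of genes. Of the 52 genes, 49 had a UTR. The complement of the miR-290 seed, AGCACTT, stood in 18 of the 49 (36.7%, Wilson 95% interval 24.7 to 50.7), against 67 of the 291 other KO-raised genes with a UTR (23.0%, 18.6 to 28.2) and 1989 of 10827 genes with a UTR and a KO mean of at least 3 (18.4%, 17.7 to 19.1). The intervals of the 49 and of the 291 genes overlapped. They cover the counting of genes only, and no test was made. Per kilobase of UTR there were 0.21 matches in the 49 genes, 0.171 in the other KO-raised genes and 0.137 in all genes, the same order as for the shares. With the A beyond the seed match, as in the 5 sites printed above, the shares were 10.2%, 7.56% and 3.85%.

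The 18 genes came from every role group. They were Rbl2, Hp1bp3 and Zhx2; Rnf213, Usp25, Trim12c and Trim65; Inhbb and Cd109; Slc16a9 and Slc40a1; Lpin1, Arsb, Rpia and Bche; Plekha6 and Tbc1d8b; and Mfap3l. Only Tbc1d8b had more than 1 match. The genes with the largest rises, Arsb and Inhbb, both carried a match with no A beyond it, and so did Slc40a1, where the match runs on into that of miR-17.
Arsb, chr13:93941740-93941760, plus strand: gccaggatAGCACTTcttcgc
Inhbb, chr1:119416134-119416154, minus strand: accacaatAGCACTTgcaggt
Slc40a1, chr1:45908270-45908290, minus strand: ttgctgtgAGCACTTtctttg
The complement of the miR-17 and miR-20a seed, GCACTTT, shares 6 letters with that of the miR-290 seed, so that a single site can hold both. It stood in 13 of the 49 genes (26.5%, 16.2 to 40.3), against 19.2% of the other KO-raised genes and 15.2% of all. At least 1 of the 2 stood in 24 of the 49 genes (49%), against 85 of 291 (29.2%) and 2696 of 10827 (24.9%). Both stood in 7, and 25 had neither. Among those with neither are Btg2, Parp12, Gsdmd, Mxd4 and Gnai1.

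Of the 15 seed families searched, that of miR-34a-5p, a miRNA induced by p53, had the next highest share in the 49 genes. Its complement CACTGCC stood in 16 (32.7%, 21.2 to 46.6), against 17.5% of the other KO-raised genes and 17.8% of all. The sites of Mxd4 and Gnai1, which lack the matches above, are shown as examples.
Mxd4, chr5:34175625-34175645, minus strand: accccaccCACTGCCaccagc
Gnai1, chr5:18266509-18266529, minus strand: ggaaatgtCACTGCCcttacc
The miR-200b-3p match stood in 12.2% of the 49 genes, against 21.6% of the other KO-raised genes and 16.0% of all, and the let-7a-5p match in 10.2%, against 8.93% and 10.6%. miR-16-5p had 26.5%, against 22.7% and 25.7%. For the remaining families the interval of the 49 genes also held the share of all genes. A match is letters in an annotated UTR, and whether these miRNAs act on it was not measured, nor were miRNA levels.

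**Figure D5:**
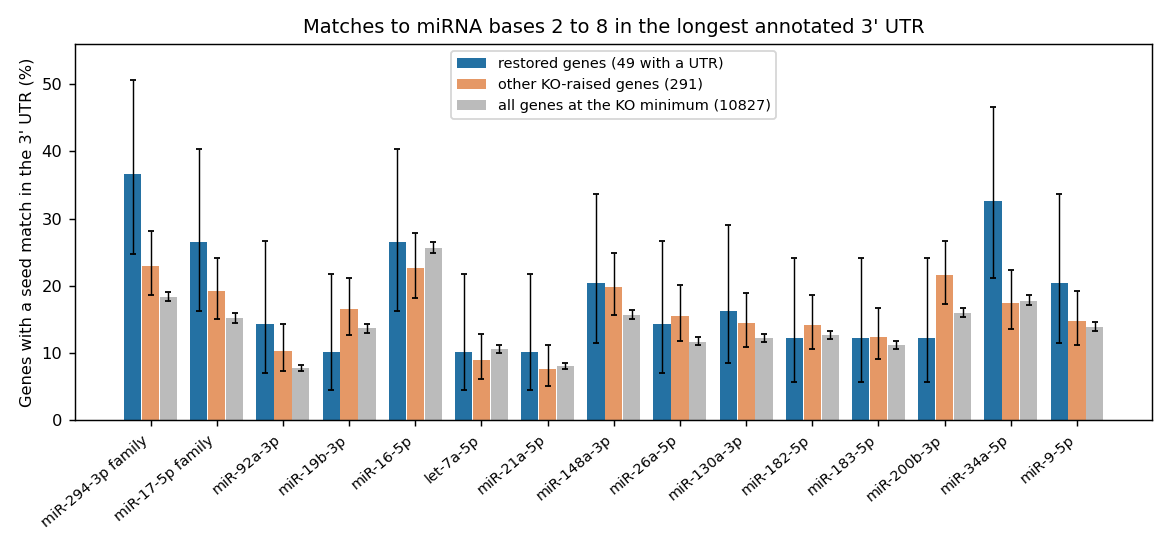
Share of genes with a match to bases 2 to 8 of each miRNA in the longest 3′ UTR, for the 49 restored genes (blue), 291 other genes raised in KO (orange) and 10827 genes with a KO mean of at least 3 (grey); bars start at 0 and lines are Wilson 95% intervals. Blue stands highest for the miR-294-3p family (36.7%) and miR-34a-5p (32.7%), and the blue lines are wide because 49 genes are few.

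Promoters from 250 bases before to 50 after the start, from RefSeq on GRCm38.p6, were matched for 43 of the 52 genes. The core of the interferon-stimulated response element, 2 blocks of GAAA set 2 bases apart, was searched on both strands. It stood in 2 of them (4.65%), against 3.99% of 27025 promoters and 3.45% of 8551 at the KO minimum. The 2 genes were Inhbb and Trim12c, and no match says only that these letters are absent from this window. The window of each match is printed on the strand of the gene, with the element in capitals, at position -198 from the start in Inhbb and -29 in Trim12c, where it lies on the opposite strand.
Inhbb, chr1:119422429-119422454, minus strand: ccaaggcaGAAAGGGAAAgagcggag
Trim12c, chr7:104353361-104353386, minus strand: agttgtggTTTCTGTTTCatttccag
A TATAAA box on either strand stood in 4 (9.30%; Ano3, Ecm1, Mfap3l and Slco2a1), against 15.7% of all promoters and 8.29% of those at the KO minimum. In the genome the 51 genes with coordinates lay on 17 chromosomes, with at most 5 on any one. Their median span was 43903 bases, against 26124 bases for all genes at the KO minimum. The lengths behind the deposited TPM followed whole spans, so reads may have been counted over introns too. The spans of 7 genes overlapped another entry (13.7% of those with coordinates, against 17.9% of the table), and the 44 genes with coordinates that overlap no other entry summed to 1230.2 and 1238 CPM in KO, 317 and 314 CPM in E518K and 286 and 307 CPM in wt.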

How the data were processed

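The deposited table of raw counts per gene symbol, 1 column per library, was used as deposited, with 0 sample columns left unused. The authors' deposited TPM table was used only to repeat the choice of genes. The submitters' processing notes name STAR, bedtools and GRCm38.p6 with no role or setting. The length implied by counts and TPM followed the genomic span within 5% for 98.5% of 13766 genes, and exonic length for 4.29%. The TPM thus used whole spans, introns included, and whether reads were counted over introns is not stated.

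edgeR 4.0.16 in R 4.3.3 fitted all 6 libraries with group as the only term (TMM factors, minimum count of 10, robust quasi-likelihood F test, Benjamini-Hochberg adjustment, threshold 0.05), with 3 residual degrees of freedom over 16498 genes. The script was tested on simulated data. Because the fit pools the spread over groups, errors of E518K against wt also draw on KO: common variation (edgeR's biological coefficient) stood at 2.61% in KO, 9.19% in E518K and 20.6% in wt.

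GENCODE M21 on GRCm38 gave coordinates for 19826 entries and the 3′ UTRs; 17 of 21 miRNAs had a RefSeq sequence and made 15 seed families. Sites match bases 2 to 8.

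The genes, the 17 lists, the role groups, the miRNAs and the motifs were chosen with earlier results of these data known. Values are given for the genes with the highest KO mean, those with the largest ratio of the lower KO library to the highest other one, those in a list, those at a threshold and those in a role group. Alternatives were another scaling, tool, filter, pseudocount or limit, leaving out each library, summing the KO libraries and leaving out overlapping genes.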

Additional observations from a re-analysis of the deposited data

How the results depend on the processing

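In place of the 52 genes, other settings of the rule gave the following numbers. A 2-fold limit in place of 3-fold gave 246 genes and a 4-fold limit 15. A KO mean of at least 10 gave 30, all E518K and wt libraries within 1.3-fold of each other gave 12, and the deposited TPM in place of CPM gave 31, of which 23 were among the 52. Leaving out 1 library at a time gave 55 to 63. The others were 38 genes with TMM, 36 with DESeq2 size factors, 38 with a pseudocount of 1 (26 of them among the 52), 51 with 0.01, 69 with a KO mean of at least 1, 37 and 78 with means within 1.2-fold and 1.5-fold, and 44 among genes that overlap no other.

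The 9429 genes called in KO against wt became 6163 with the KO libraries summed, an alternative chosen after seeing the data, and 6084 to 10958 without 1 library at a time. The 6902 calls in KO against E518K became 3267 and 3285 to 9482 in the same order. The 3917 calls in E518K against wt became 1909 with the KO libraries summed, 1999 with only the 4 libraries compared, and 644 (without E518K clone 15) to 6987 (without wt clone 16). The share of these calls that was higher in E518K was 47.5%, against 37.5% with upper quartile factors and 60.1% and 60.3% without E518K clone 8 or 15. Under 8 other settings, 27 of the 52 genes in KO against wt and in KO against E518K, untested, and 31 list genes in KO against wt gave 680 log2 fold changes. Of these, 643 stayed within the standard error of the main fit (the 27 genes) or kept their call (list genes). By more than that standard error 35 moved, and none reversed. Of the 27 genes in KO against wt, 15 moved without wt clone 12 and 15 without wt clone 16. In KO against E518K, 3 moved without E518K clone 8 and 2 without clone 15. The primitive endoderm marker Col4a2 lost its call in KO against wt without either KO library. In KO against E518K the same 31 list genes gave 248, of which 5 lost a call (Smad7 in 3, Fcgr2b and Sox3 in 1 each), 5 gained one (Lamb1 in 3, Nefm in 2) and none reversed. The share of genes with a miR-290 match was 1.99 times that of all genes, 1.53 times per base of UTR and 2.65 times for matches followed by an A. No paired analysis was possible because the groups share no replicate number. Depth was even, and the number of clones limits the precision.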
